A study of Homo sapiens with 7 samples.

Results

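The genes described are 8 transcription factors of the hepatocyte, HNF4A, FOXA1, FOXA2, FOXA3, CEBPA, ONECUT1, PROX1 and NR5A2, in HepG2, an established human liver cancer cell line. They were chosen by symbol in the expression table, where 10 of 30032 rows, and of the 23303 rows with a gene symbol, carry one of these names. HepG2 was grown without any treatment named in the labels and profiled in 7 samples, 1 each for RNA-Seq, native MNase-Seq and ChIP-Seq of 3 activation marks (H3K4me3, H3K9ac and H3K27ac) and the suppression marks H3K27me3 and H3K9me3. There are no replicates and no second cell type, so no P value was computed, and each value describes these libraries only.

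The 8 genes encode DNA-binding proteins that act together in the liver and bind the regulatory regions of many liver genes, including those of one another. FOXA proteins open closed chromatin early in liver development, HNF4A is a nuclear receptor that maintains the hepatocyte program, and CEBPA drives metabolic genes. ONECUT1, PROX1 and NR5A2 act in the developing liver, and NR5A2 also controls bile acid synthesis. H3K4me3 marks gene starts, H3K9ac and H3K27ac mark active promoters, H3K27ac without H3K4me3 is typical of distal enhancers, and H3K27me3 and H3K9me3 accompany Polycomb silencing and heterochromatin.

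The cells carried RNA of the hepatocyte markers chosen, which are too few to describe the whole hepatocyte program. All 11 hepatocyte markers had an FPKM (fragments scaled by transcript length and library size) above 1, from 56.6 for FGB to 10011 for ALB, and AFP, a fetal liver protein, had 3798. Of 5 markers of other cells, PTPRC and KRT5 were listed at 0, PECAM1 had 0.137 and COL1A1 0.164, and CD14 was the exception with 2.53. FPKM values were deposited in 2 columns for the single RNA-Seq sample, called run 1 and run 2 here, and their mean counts as 1 replicate. Read counts are not given, so the depth behind a value is unknown. In RNA from a whole culture, fewer cells that express a gene and less RNA per cell cannot be told apart.

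Of the 8 factors, 7 had an FPKM of at least 1, the limit used for an expressed gene, against 47.7% of the 13265 named genes with their own coordinates (called background genes). HNF4A, FOXA1 and PROX1 share their coordinates with other rows, so they and genes like them are not in this background. CEBPA was highest, as run 1 gave it 70.6 FPKM and run 2 gave 71.5. HNF4A followed with 66.6 and 62.7, and FOXA1 with 32.4 and 32.3. PROX1 had 21.7 and 21.5. FOXA3, with 14.5 and 13.6, and FOXA2, with 13.9 and 14.1, overlapped between the runs and cannot be ordered. ONECUT1 was lower, with 4.06 and 3.84. NR5A2 was the only one of the 8 below the limit, at 0.273 (run 1) and 0.399 (run 2), a ratio of run 2 to run 1 of 1.46, whereas this ratio lay between 0.938 and 1.01 for the other genes. Among background genes, the mean of both runs was at the 95.5th percentile for CEBPA, the 95.0th for HNF4A, the 61.2nd for ONECUT1 and the 47.5th for NR5A2. Thus NR5A2 goes against the group's label in these cells at the limit of 1. With a limit of 0.1 all 8 factors counted as expressed, and with a limit of 5 the number was 6.

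**Figure D1:**
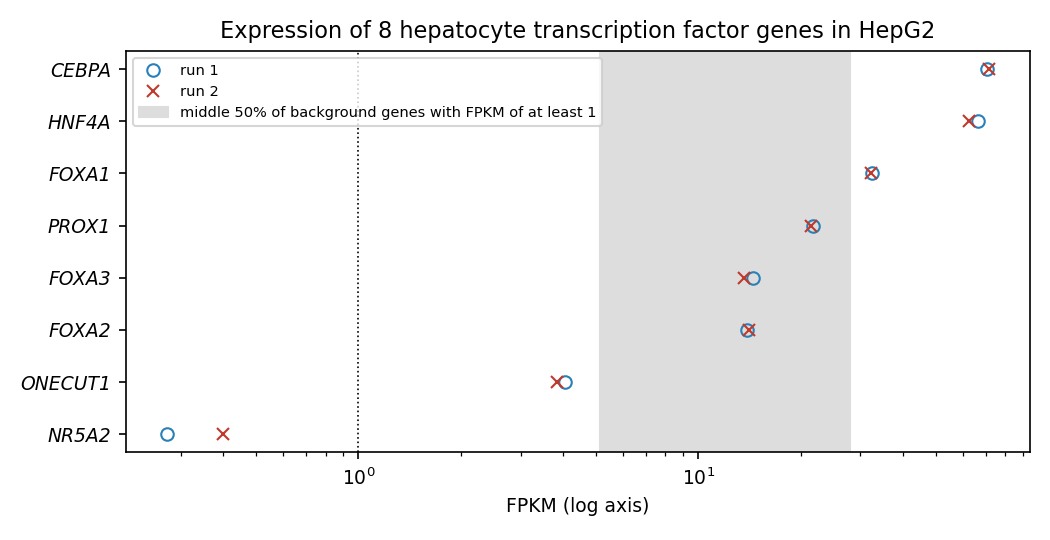
FPKM of each gene on a log axis, with run 1 as circles and run 2 as crosses. The dotted line is an FPKM of 1 and the grey band holds the middle 50% of expressed background genes, which CEBPA, HNF4A and FOXA1 exceed and ONECUT1 and NR5A2 fall short of.

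Histone marks were read at nucleosome positions. A position is a stretch of 140 bp at which the authors called a native nucleosome, and a position carrying H3K4me3, H3K9ac and H3K27ac together and no other mark is called "T", for trivalent. Each locus was examined with 20 kb on either side. These windows held 5516 nucleosome positions, of which 232 carried a mark, or 4.21% (exact 95% interval 3.69 to 4.77, counting error only). The marked positions lay in 58 groups when joined over gaps of up to 1 kb. The intervals given here treat positions as independent and are therefore too narrow. "T" was the most frequent combination with 80 positions, or 34.5% (28.4 to 41.0) of the marked ones, and H3K27ac alone followed with 68, or 29.3% (23.5 to 35.6). The same shares were not computed over the whole map, so whether these loci differ from others in them was not tested. H3K4me3 alone was at 24 positions and H3K9ac alone at 6. Pairs of activation marks were found at 17 positions of H3K4me3/H3K9ac, 15 of H3K9ac/H3K27ac and 8 of H3K4me3/H3K27ac. H3K27me3 was at 9 positions and H3K9me3 at 5, and none of the 232 positions carried an activation mark and a suppression mark together.

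"T" was found over 7 of the 8 loci, against 57.5% of background genes, and the exception was again NR5A2. The 57.5% includes genes that were not expressed, and the share among expressed genes alone was not computed. FOXA2 had 19 "T", FOXA1 12, HNF4A and FOXA3 11 each, ONECUT1 and PROX1 10 each, and CEBPA 7. The order by "T" was not the order by FPKM, since CEBPA had the highest FPKM and the fewest "T" of these 7, and FOXA2 had the most "T" at an FPKM of 14.0. The median was 10.5 "T" and 28 marked positions per factor, against 5 and 13 at the 6328 expressed background genes. The windows differ in length, as the median listed locus was 59.1 kb for the factors and 32.1 kb for those genes, and the part of length in this was not tested. The background also leaves out loci with shared coordinates, the kind to which HNF4A, FOXA1 and PROX1 belong. H3K27me3 was found over 2 of the 8 loci, ONECUT1 and NR5A2, against 39.8% of background genes and 27.3% of expressed ones. H3K9me3 was found over 3 loci, FOXA3, PROX1 and NR5A2, against 37.0% of background genes. With 8 genes, neither count is a result about the factors.

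**Figure D2:**
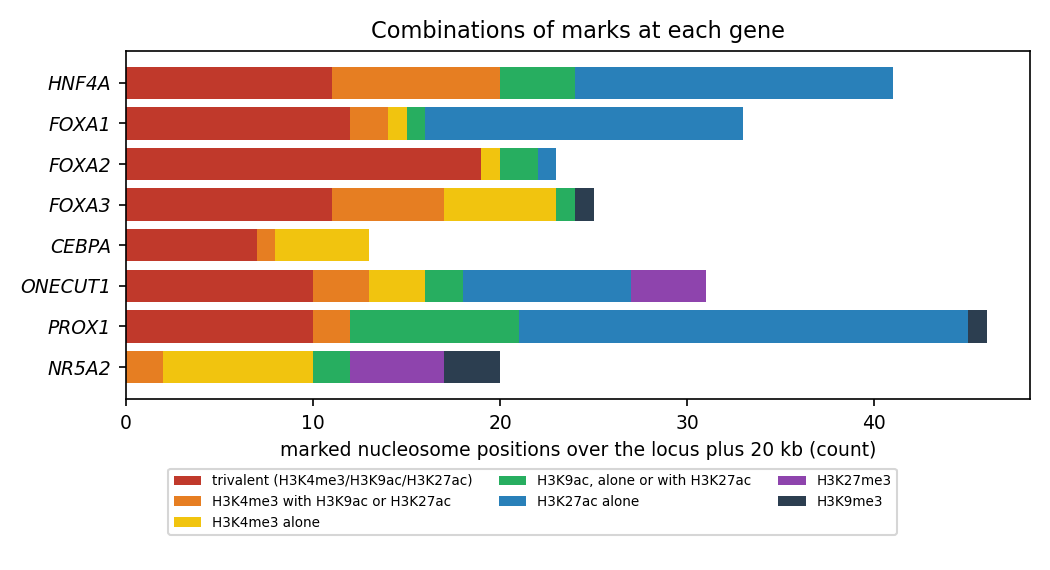
Number of marked nucleosome positions over each locus plus 20 kb, stacked by combination of marks. "T" leads at FOXA2 with 19 of 23 positions, H3K27ac alone leads at PROX1 with 24 of 46, and NR5A2 has no "T" and no H3K27ac.

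Within 2 kb of the listed start, 5 of the 8 genes had at least 3 "T", against 27.9% of background genes and 56.4% of the expressed ones. FOXA2 had 10 "T" there, ONECUT1 7, CEBPA 6, HNF4A 5 and FOXA3 4. FOXA1, PROX1 and NR5A2 had 0. For FOXA1 and PROX1 the listed start is the outer end of a locus much longer than the gene. The FOXA1 locus is listed with 212720 bp and that of PROX1 with 223603 bp, whereas RefSeq gives these genes 5698 and 58360 bp. Their "T" lay far inside, as described below. With each start placed instead by counting the RefSeq gene length back from the listed 3′ end, 4 of the 8 genes had at least 3 "T" within 2 kb, and 3 genes changed side. FOXA1 had 7 "T" in place of 0, whereas HNF4A had 2 in place of 5 and ONECUT1 1 in place of 7. PROX1 had 1 and NR5A2 0 at the start placed in this way.

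**Figure D3:**
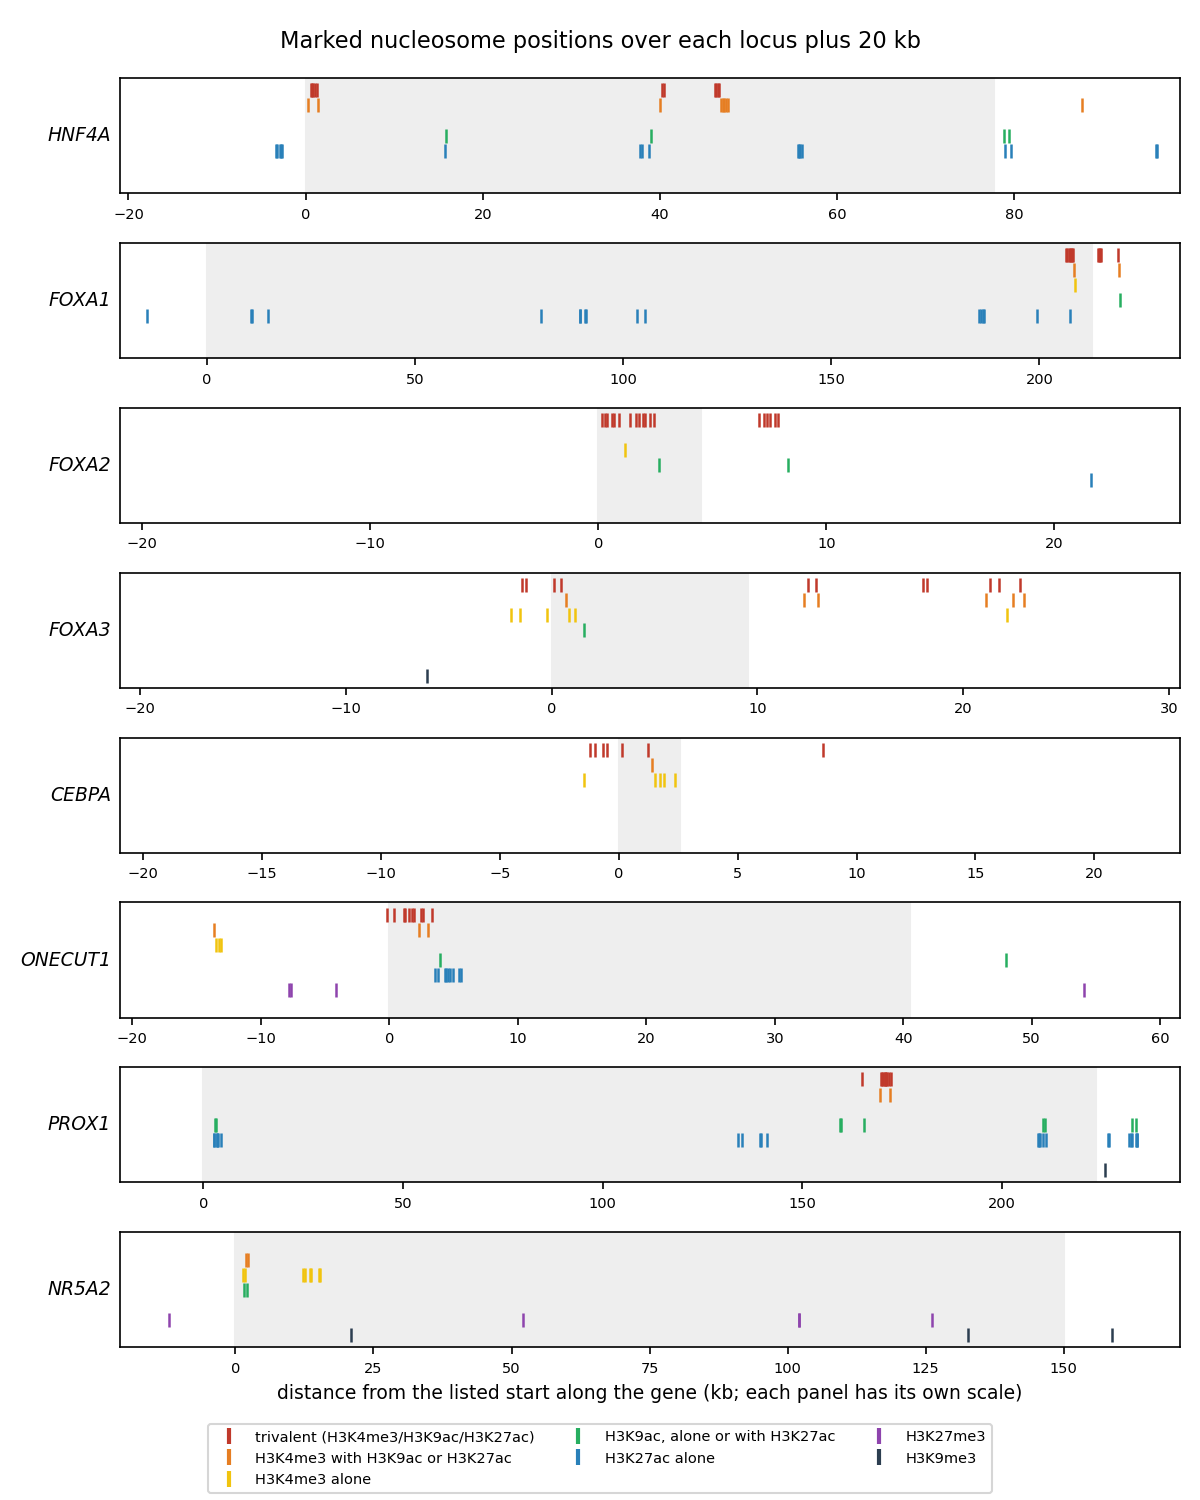
Marked nucleosome positions by distance in kb from the listed start in the direction of transcription, with the listed locus in grey and a row of ticks per combination of marks. "T" is found within 2 kb of the listed start, on 1 or both sides, for HNF4A, FOXA2, FOXA3, CEBPA and ONECUT1. It lies near the right edge for FOXA1, at 165 kb and 170 to 172 kb for PROX1, and nowhere for NR5A2.

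HNF4A is listed on chromosome 20 of hg19 from 42983814 to 43061487, on the plus strand. RefSeq gives it a pair of starts 45540 bp apart, the first upstream and known to be used in fetal liver and pancreas, the second within the locus and known to be used in adult liver. Marked positions were joined into islands over gaps of up to 1 kb. The island at the listed start ran from 307 to 1422 bp downstream and held 7 positions, all marked, with 5 consecutive "T" between a position with H3K4me3/H3K27ac and one with H3K4me3/H3K9ac. Another island lay at 46182 to 47637 bp, just beyond the distance between the RefSeq starts, with 4 "T" followed by 5 positions with H3K4me3/H3K9ac and no H3K27ac. A further island with 2 "T" ended at 40407 bp, where RefSeq places the starts of the antisense gene HNF4A-AS1 at 39963 and 40007 bp from the first HNF4A start. Distances along the GRCh38 gene were set beside those in hg19 without converting coordinates, so they agree only approximately.

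No "T" was found upstream of the listed start of HNF4A. The nearest marks there were 5 positions with H3K27ac alone, from 3393 to 2618 bp upstream. H3K27ac without the other marks was at 17 positions over this locus, among them 4 at 55597 to 55994 bp in the gene. A second row carries the HNF4A symbol with the same coordinates but on the minus strand, with an FPKM of 4.13 and 5.18, and the plus-strand row was 13.9 times higher. Which transcript start the HNF4A reads came from cannot be told from 1 value per locus.

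The promoter sequences of the starts of HNF4A are shown because both had trivalent nucleosomes downstream. They are from RefSeq (GRCh38.p14), run from 250 bases before to 50 bases after the start, and have matches to liver factor motifs in capitals. The first is at chr20:44355449-44355748, plus strand, and the second at chr20:44400989-44401288, plus strand.
HNF4A first start: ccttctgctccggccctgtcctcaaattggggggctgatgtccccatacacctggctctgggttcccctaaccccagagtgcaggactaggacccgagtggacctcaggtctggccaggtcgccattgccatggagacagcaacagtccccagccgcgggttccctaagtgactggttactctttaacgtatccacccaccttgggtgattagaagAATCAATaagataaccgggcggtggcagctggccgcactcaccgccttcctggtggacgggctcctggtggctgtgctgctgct
HNF4A second start: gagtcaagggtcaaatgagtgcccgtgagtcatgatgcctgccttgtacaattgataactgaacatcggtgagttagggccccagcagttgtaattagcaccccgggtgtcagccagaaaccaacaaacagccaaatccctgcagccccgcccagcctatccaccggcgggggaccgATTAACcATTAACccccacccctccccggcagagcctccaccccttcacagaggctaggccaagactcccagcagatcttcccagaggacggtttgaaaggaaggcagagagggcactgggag

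In the first sequence the capitals mark an ONECUT motif (ATTGATT, searched on both strands), which begins 34 bases before the start and was found in 2.18% of 35116 RefSeq promoters of the same length. In the second they mark 2 matches to the HNF1 motif GTTAAT on the reverse strand, 73 and 66 bases before the start, and 6.88% of promoters hold this motif. CpG dinucleotides numbered 11 and 9, against a median of 14 over all promoters. A match describes letters only and is no evidence of binding.

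FOXA1 is listed on chromosome 14 from 38059191 to 38271910 and lies on the minus strand. Counted from the listed 3′ end, the RefSeq gene length puts its start 207022 bp from the listed start. The island with the most "T" ran from 206284 to 208509 bp, with 7 "T" among 10 marked of 11 positions, and 7 "T" lay within 2 kb of the start placed in this way. An island with 4 "T" and nothing else followed at 214151 to 214809 bp, beyond the listed 3′ end, and another "T" was at 218979 bp. The 17 positions with H3K27ac alone were spread over the region, 16 of them more than 5 kb from any "T". The long locus joins transcripts of both strands. A plus-strand row with the FOXA1 symbol and the same coordinates had an FPKM of 6.12 and 6.98, and the minus-strand row was 4.94 times higher.

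FOXA2 is listed on chromosome 20 from 22561642 to 22566137, on the minus strand, and had the most "T" of the 8. From 146 to 2674 bp downstream of its start, all 15 nucleosome positions were marked, 13 of them "T", with up to 7 "T" in a row. The median spacing of neighbouring positions in this island was 185 bp. The number of "T" within 2 kb of the start was at the 99.7th percentile of background genes. A second island, with 6 consecutive "T" and 1 H3K9ac/H3K27ac, ran from 7054 to 8301 bp. It lies next to the listed start of NCRNA00261, a noncoding RNA on the same strand, at 6777 bp, and NCRNA00261 had an FPKM of 19.7 and 19.0, above that of FOXA2. Between the islands no position was marked, and upstream of the FOXA2 start there was none within 20 kb.

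FOXA3 is listed on chromosome 19 from 46367518 to 46377055, on the plus strand. The start of SYMPK, a scaffold of the mRNA cleavage machinery, is listed 970 bp upstream on the opposite strand, with an FPKM of 14.9 and 14.7. The island over both starts ran from 1967 bp upstream to 1578 bp downstream of FOXA3 and held 11 marked of 15 positions. The "T" were in pairs, at 1422 and 1232 bp upstream and at 108 and 471 bp downstream, with 5 positions of H3K4me3 alone around them. A further 7 "T" lay in 3 islands between 12251 and 22963 bp, past the end of the gene. The farthest of these, with 3 "T", falls in the listed locus of IRF2BP1 and MYPOP, so which gene its marks belong to cannot be told apart.

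CEBPA is listed on chromosome 19 from 33790840 to 33793430, on the minus strand. A noncoding locus, LOC80054, is listed on the plus strand with its start 223 bp upstream, and RefSeq names it CEBPA-DT. It had an FPKM of 4.08 and 4.09. The only "T" outside the island around the start was at 8604 bp. The island ran from 1481 bp upstream to 2354 bp downstream with 12 marked of 14 positions. It held 4 "T" upstream of the CEBPA start, from 1206 to 496 bp, and 2 downstream, at 149 and 1209 bp. No nucleosome was called between the last pair, and the distance of 1060 bp was the widest inside the largest islands of the 8 genes. H3K27ac alone was absent over the locus, and H3K4me3 alone was at 4 positions from 1509 to 2354 bp and at 1 upstream.

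The promoters of CEBPA and FOXA3 are shown because they share a TATA motif (TATAAA, in capitals, 11.5% of all promoters) at the same distance, 30 bases before the start. CEBPA is at chr19:33302485-33302784, minus strand, and FOXA3 at chr19:45864076-45864375, plus strand, both in GRCh38.p14.
CEBPA: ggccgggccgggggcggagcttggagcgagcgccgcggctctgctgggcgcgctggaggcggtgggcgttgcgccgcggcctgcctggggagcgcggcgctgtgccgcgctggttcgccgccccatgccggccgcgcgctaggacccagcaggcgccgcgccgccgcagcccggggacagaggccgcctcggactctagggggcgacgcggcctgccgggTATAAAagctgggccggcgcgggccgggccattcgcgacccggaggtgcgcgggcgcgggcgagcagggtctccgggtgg
FOXA3: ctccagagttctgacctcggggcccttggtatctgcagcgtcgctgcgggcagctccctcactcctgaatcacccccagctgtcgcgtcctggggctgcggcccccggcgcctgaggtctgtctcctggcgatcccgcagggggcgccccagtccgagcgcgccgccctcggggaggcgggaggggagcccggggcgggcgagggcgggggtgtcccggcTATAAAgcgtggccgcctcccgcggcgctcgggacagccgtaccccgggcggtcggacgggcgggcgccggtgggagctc

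The CEBPA promoter holds 50 CpG dinucleotides, more than 98.7% of promoters, and has a GC content of 80.7%. For FOXA3 the values are 37 and 76.3%, for ONECUT1 39 and 75.0%, and for FOXA1 34 and 69.3%. Motifs of HNF4A (CAAAGTCCA), CEBPA (TTGCNNAA) and NR5A2 (CAAGGTCA) were found in none of the 8 promoter sequences of the 6 factors in the RefSeq table, and they are held by 0.384%, 10.5% and 1.28% of all promoters. The FOXA motif TGTTTGC, held by 3.89%, was found at FOXA1 only.

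**Figure D4:**
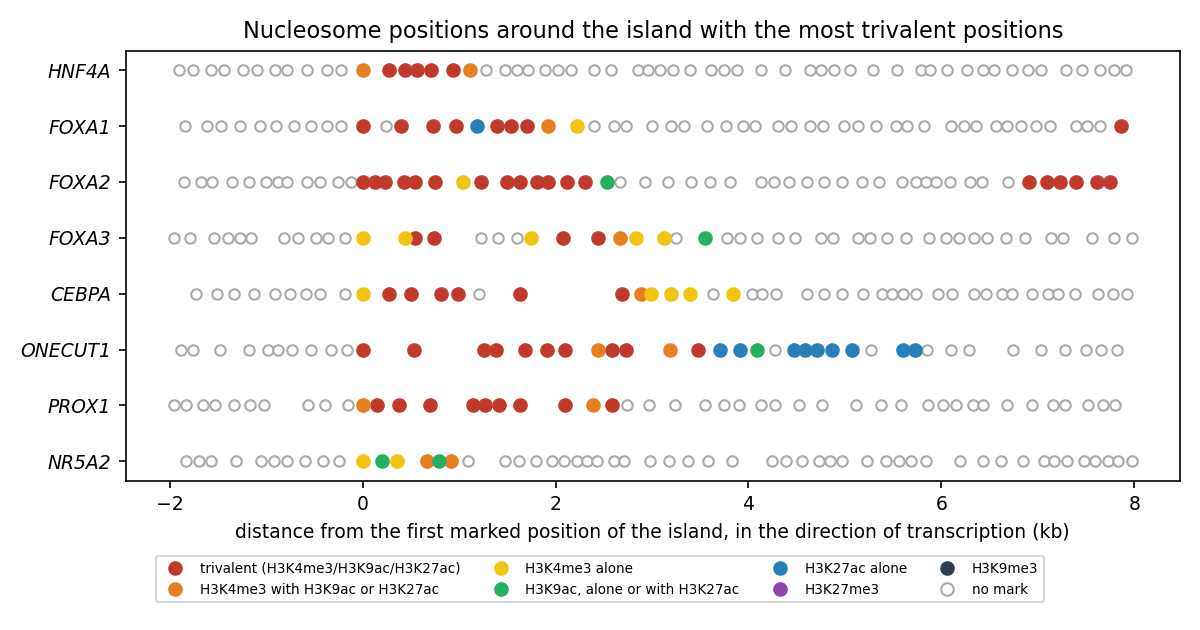
Nucleosome positions around the island with the most "T" of each gene (for NR5A2, the most marked positions), by distance in kb from the island's first marked position in the direction of transcription. Filled points are marked positions coloured by combination and open points are unmarked, and the island is unbroken over 15 positions at FOXA2, has a stretch without called nucleosomes at CEBPA, and changes from "T" to H3K27ac alone at ONECUT1.

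ONECUT1 is listed on chromosome 15 from 53042094 to 53082630, on the minus strand. Its island was the longest of the 8 with 5865 bp, and 22 of its 24 positions were marked. The 10 "T" lay from 141 bp upstream to 3337 bp downstream of the start, with 2 positions of H3K4me3/H3K27ac between them. From 3559 to 5584 bp, 9 positions had H3K27ac alone and 1, at 3944 bp, had H3K9ac/H3K27ac. The number of "T" within 2 kb of the listed start was at the 96.9th percentile of background genes and the FPKM at the 61.2nd. This number depends on the start used, since only 1 "T" lay within 2 kb of the start placed by RefSeq gene length. That start is 5253 bp further in, among the positions with H3K27ac alone. Its placement puts all the extra listed length on the start side, which was not tested. The positions flanking the listed start, 141 bp upstream and 394 bp downstream, were both "T". H3K27me3 was at 4 positions, 4111, 7671 and 7816 bp upstream and 54077 bp downstream. None of them was inside the listed gene. A group of 3 positions with H3K4me3 alone and 1 with H3K4me3/H3K9ac lay 13136 to 13613 bp upstream, near the start of an unnamed locus with an FPKM of 0.0175 and 0.

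PROX1 is listed on chromosome 1 from 213991106 to 214214708, on the plus strand, and RefSeq's gene length puts its start 165243 bp from the listed start. There, an island at 164940 to 165540 bp held 1 "T" and 1 H3K9ac/H3K27ac. The main island lay further in, at 169590 to 172175 bp, with all 11 positions marked, 9 "T" (8 of them in a row) and 2 H3K4me3/H3K27ac. The window of PROX1 was the longest of the 8, at 264 kb, and the part of length in its counts was not tested. PROX1 had the most H3K27ac of the 8 genes, at 44 positions, 24 of them without another mark. These 24 were all more than 5 kb from any "T". They formed groups at 2577 to 4455 bp, at 134040 to 141090 bp, at 209170 to 211085 bp and at 226725 to 234000 bp from the listed start, the last of which is past the listed end of the gene. A single H3K9me3 position lay at 225880 bp.

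NR5A2 is listed on chromosome 1 from 199996511 to 200146550, on the plus strand, and differed from the other 7 genes in these counts. Of its 20 marked positions, 8 carried H3K4me3 alone, 2 H3K4me3/H3K9ac and 2 H3K9ac alone, and H3K27ac was at 0 of 968 positions. Near the listed start, 6 positions from 1310 to 2230 bp carried H3K4me3, H3K9ac or both. RefSeq gives a second start 14881 bp after the first, and 6 positions with H3K4me3 alone lay on either side of that distance, from 12255 to 15310 bp. H3K27me3 was at 5 positions, 12092 bp upstream and from 52115 to 126165 bp in the gene, and H3K9me3 at 3. The deposited lists hold only called peaks, so marks under the calling limits would not appear.

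The promoters of the starts of NR5A2 are shown because neither had "T" and they differ in CpG content. The first is at chr1:200027460-200027759, plus strand, and the second at chr1:200042341-200042640, plus strand (GRCh38.p14), with motif matches in capitals.
NR5A2 first start: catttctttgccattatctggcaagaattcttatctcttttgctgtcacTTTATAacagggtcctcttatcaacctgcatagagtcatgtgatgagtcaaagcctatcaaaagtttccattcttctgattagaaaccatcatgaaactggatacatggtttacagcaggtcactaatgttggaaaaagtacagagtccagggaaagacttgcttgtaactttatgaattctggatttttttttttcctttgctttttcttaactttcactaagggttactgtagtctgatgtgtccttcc
NR5A2 second start: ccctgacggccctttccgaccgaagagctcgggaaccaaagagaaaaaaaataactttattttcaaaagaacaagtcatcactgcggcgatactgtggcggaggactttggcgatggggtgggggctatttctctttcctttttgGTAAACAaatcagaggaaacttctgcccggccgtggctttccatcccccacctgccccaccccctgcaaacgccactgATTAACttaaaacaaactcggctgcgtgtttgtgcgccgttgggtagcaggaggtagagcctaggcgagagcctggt

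The first holds 0 CpG dinucleotides and a reverse TATA motif, and the second holds 16 CpG and matches to the FOXA motif TGTTTAC (3.42% of promoters) and the HNF1 motif, both on the reverse strand and 105 and 27 bases before the start.

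NR5A1, the paralog of NR5A2 that is known for steroid-producing tissues, had an FPKM of 26.2 and 25.3, which was 76.8 times the NR5A2 value. Its locus on chromosome 9 held an island of 9 marked positions with 6 "T" from 127268595 to 127270331, 2629 to 4226 bp inside the listed start, and no H3K27me3. Among the 9 closest paralogs of the factors, 6 had an FPKM of at least 1, against 47.7% of background genes. CEBPB (38.1), CEBPG (35.6) and NR5A1 (25.8) were highest as means of both runs. HNF4G had 6.68 and ONECUT2 4.33, which is near the 3.95 of ONECUT1. PROX2 had 0.957, CEBPE 0.088, and ONECUT3 was listed at 0. CEBPD had 4 positions with H3K27me3 over its locus, and HNF4G and ONECUT2 1 each. The CEBPD locus is listed on chromosome 8 from 48173446 to 48651301 and shares its coordinates with another row. Which gene its H3K27me3 belongs to cannot be told apart.

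Other regulators of the liver were expressed in most cases, with 23 of 24 genes at an FPKM of at least 1, against 47.7% of background genes. The median was 12.3, against 17.9 for the 8 factors. XBP1, which controls secretory capacity, had 192, the bile acid-induced repressor NR0B2 had 75.1 and NR2F6 had 43.3. At least 3 "T" within 2 kb of the listed start were found at 14 of the 24 (58.3%). This is near the 56.4% of expressed background genes, and the share of all background genes was 27.9%. H3K27me3 was found over 5 loci (20.8%), against 39.8% of background genes and 27.3% of expressed ones. Most was at ESRRA (9 positions), CEBPD (4) and GATA6 (2). The loci of ESRRA and CEBPD share their coordinates with other rows, so which gene their H3K27me3 belongs to cannot be told apart. NR1H4, the bile acid receptor, had 36.5 and HHEX, which acts in liver budding, 34.5.

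Of 28 transcription factors that mark other lineages, 1 had an FPKM of at least 1, against 47.7% of background genes, and 23 were below 0.1. POU4F1 (1.42), NKX2-5 (0.734) and PAX6 (0.213) were highest, so the lowest hepatocyte factor, NR5A2, lay between NKX2-5 and PAX6. None had 3 "T" within 2 kb of the listed start, against 27.9% of background genes. H3K27me3 was found over 20 of the 28 loci (71.4%), against 39.8% of background genes. It was at 5 positions each at NKX6-1 and POU4F1 and 4 each at PTF1A and MITF. ONECUT1 had 4 and NR5A2 5, but over windows of 80.5 and 190.0 kb, and the windows of the other factors differ in length, so these counts were not ranked. The lists were not tested against each other, since genes are not replicates of a condition.

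**Figure D5:**
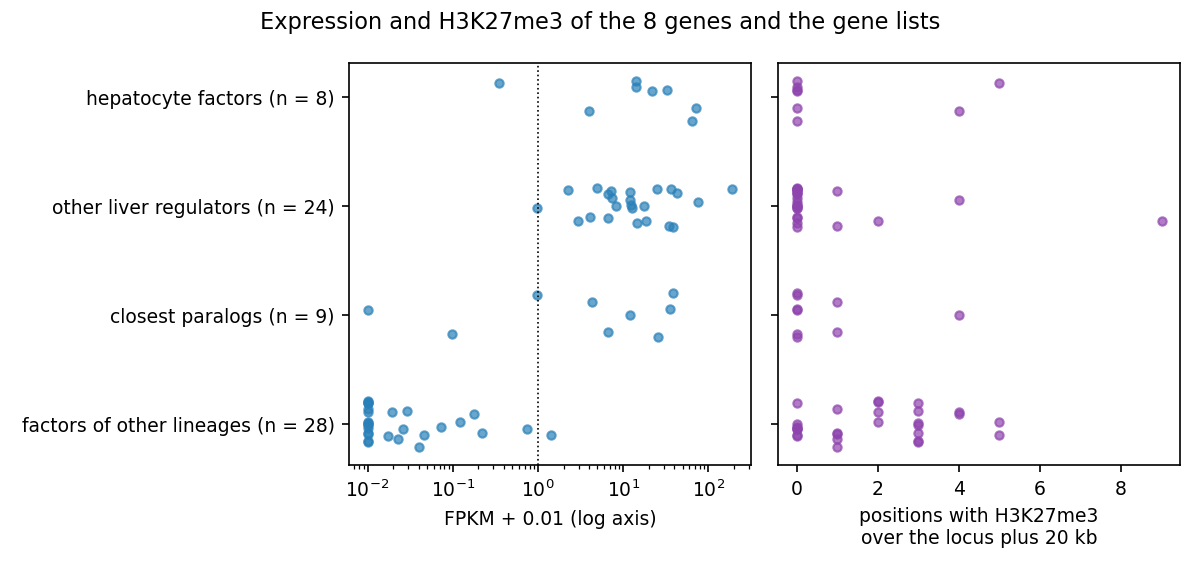
Mean FPKM plus 0.01 on a log axis (left, dotted line at the limit of 1) and number of positions with H3K27me3 over the locus plus 20 kb (right), with a point per gene and vertical jitter only for visibility. The hepatocyte factors and other liver regulators lie mostly above the limit with 0 H3K27me3 positions, and the factors of other lineages lie below it except POU4F1 at 1.42.

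The genes most alike to each factor in marks were sought among background genes with an FPKM within 2-fold, by Pearson's r over 5 marks in 8 bins of 500 bp around the listed start. The 40 values per gene share their libraries, and between 833 and 2640 genes were compared. The most alike were ATXN7L3B for HNF4A (r = 0.978), IKZF2 for NR5A2 (0.959), DVL3 for FOXA2 (0.956), ZNF362 for ONECUT1 (0.925), SYMPK for FOXA3 (0.886) and IL6ST for CEBPA (0.713). SYMPK shares the nucleosomes of its start with FOXA3. FOXA1 and PROX1 had no mark within 2 kb of the listed start and gave no r. NR5A2 had only 4 marked positions within 2 kb of the listed start, so most of its values were 0 and its r rests on few marks. All these values describe the bins of 1 library per mark.

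At the listed starts, nucleosome spacing differed among the genes. For FOXA1 and PROX1 these are outer ends of long loci. The RefSeq gene length puts their starts 207022 and 165243 bp further in. The positions on either side of the listed start were 535 bp apart at ONECUT1, 428 bp at CEBPA, 355 bp at PROX1, 335 bp at FOXA3 and 265 bp at NR5A2, measured between midpoints. At PROX1 and NR5A2 neither of these positions was marked. The distance was 147 bp at FOXA1, also without marks, 150 bp at HNF4A and 130 bp at FOXA2. At HNF4A and FOXA2 the first marked positions downstream lay at 307 and 146 bp, and the listed start may differ from the base where transcription begins.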

How the data were processed

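The authors aligned MNase-Seq and ChIP-Seq reads (BWA and the hg19 build are named in the submitters' processing notes), called nucleosome positions with DANPOS and called marks at these positions with NUCLIZE against input. They deposited coordinates with no height or read count. The authors deposited RNA-Seq as FPKM in the layout of Cuffdiff; TopHat2 2.1.0, Bowtie, HOMER 4.7 and edgeR are named with no role, the annotation is not given in the sources used here, and the columns of their own comparison of both runs (fold change and p-values) were not used.

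Each peak was assigned to the position it overlapped most, which was the position named by its identifier for 319086 of 319086 peaks. Strand came from the numbering of the loci, and equalled the RefSeq strand for 8396 of 8426 background genes (99.6%) with a RefSeq promoter. For a symbol with several rows, the row on the RefSeq strand or else the highest was used. Starts are counted from base 1, and a position counts where its midpoint lies. Expressed was set at an FPKM of 1, "T" at exactly the 3 activation marks, islands at gaps of up to 1 kb, and flanks at 20 kb. Named genes are the 8 factors, the 3 highest by FPKM and by H3K27me3 in each list, neighbours and the most alike genes; HNF4G, ONECUT2, ONECUT3, CEBPE, PROX2, NR1H4 and HHEX were named after their values were seen. The members and lists were chosen with earlier results of these data known. Counting was tested on simulated data. Alternatives were other windows, flanks, gaps, limits, matching and gene sets. Values were computed with pandas 2.3.3 and numpy 2.4.6 in Python 3.11.15, intervals with scipy 1.17.1 and plots with matplotlib 3.10.9. A gene of the lists is not reported here.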

Additional observations from a re-analysis of the deposited data

How the results depend on the processing

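Of 39 alternatives to 14 results, 33 left the count within 1.5 times or the share within its exact interval. Within 1 kb of the listed start, 3 factors in place of 5 had at least 3 "T". Among the factors of other lineages, 5 passed an FPKM limit of 0.1 and 0 a limit of 5, in place of 1. With all named loci as background, 51.4% of genes were expressed, 26.7% had at least 3 "T" near the start, and the median percentile of the 8 factors was 80.4 in place of 81.7. With the start placed by the RefSeq gene length, an alternative chosen after seeing the data, 4 factors had at least 3 "T": FOXA1 gained the call (7 in place of 0), and HNF4A (2 in place of 5) and ONECUT1 (1 in place of 7) lost it. This placement holds only where the listed and RefSeq 3′ ends are the same, and the cause of the changes was not tested. No paired analysis was possible because there is 1 sample per assay. Peak lists without heights and FPKM without counts set the limits here, since a stricter threshold or an error per position could not be computed.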
